A study of Homo sapiens with 12 samples.

Results

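The 55 genes described here encode the machinery of mitosis: the kinases and cyclins that start it, the kinetochore, the spindle motors and assembly factors, the spindle checkpoint and the condensins. They were taken by symbol from a fixed list, and all 55 were found among the 13951 genes of the deposited tables. RNA-seq libraries came from CWR22Rv1, an established human prostate carcinoma cell line cultured for 48 h, in 4 groups of 3 libraries. Control cells expressed Cas9 constitutively without a guide RNA, and LV-MEIS1 cells carried lentiviral MEIS1, a homeodomain factor that partners HOX proteins. HOXB13ko was a pool of 6 recombined clones of cells targeted at HOXB13 with CRISPR/Cas9, and HOXB13ko-LV-MEIS1 was derived from HOXB13ko by infection with the MEIS1 lentivirus. Whether LV-MEIS1 cells also carry Cas9 is not given in the sources used here. Each group is thus one line or pool, and the p-values measure the spread between libraries of that line, which may be technical. The design asks which effects of MEIS1 on mRNA depend on HOXB13.

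Mitotic genes are transcribed mainly in the late part of the cell cycle. In resting and early-cycle cells the DREAM complex represses many of them through a promoter element called the cell cycle genes homology region (CHR), and later the MYB-MuvB complex and FOXM1 activate them through the same element, often beside CCAAT boxes bound by NF-Y. Cyclin B with CDK1 then drives entry into mitosis, the kinetochore couples chromosomes to spindle microtubules, and the checkpoint restrains CDC20 until every kinetochore is attached. In prostate carcinoma, as in other tumours, high mRNA of these genes marks proliferating cells. In bulk RNA, fewer cells in mitosis and less mRNA per cell cannot be told apart.

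The promoters of 46 of the 55 genes were found in the RefSeq set for GRCh38.p14, as windows from 250 bases before to 50 bases after the transcription start. The CHR was searched as TTTGAA or TTCGAA and the CCAAT box as CCAAT, on both strands. A CHR was present in 35 of the 46 windows (76.1%), against 10.9% of 10646 listed genes with a window and 16.6% of all 27305 windows. For 39 DNA replication genes, which are transcribed earlier in the cycle, it was present in 2 of 34 windows (5.88%). A CCAAT box was present in 34 of 46 mitotic windows (73.9%), in 58.8% of the replication windows and in 36.8% of the listed genes. Both motifs were present in 27 mitotic windows (58.7%) and in 4.67% of the listed genes. These matches are a description of the letters in the windows, not of binding sites.

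The bases just upstream of the start are shown for 3 genes that were higher in the libraries labelled HOXB13ko (KIF18A, KIF4A and NCAPG), for CDC20, which was lower there, and for ESPL1, which did not pass the test there. Capitals mark the CHR (TTTGAA, or TTCAAA on the opposite strand) and the CCAAT box (CCAAT, or ATTGG on the opposite strand).
KIF18A at chr11:28108157-28108296, minus strand: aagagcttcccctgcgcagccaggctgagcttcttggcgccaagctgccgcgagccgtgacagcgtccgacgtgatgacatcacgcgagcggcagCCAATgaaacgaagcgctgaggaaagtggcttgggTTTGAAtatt
KIF4A at chrX:70289964-70290103, plus strand: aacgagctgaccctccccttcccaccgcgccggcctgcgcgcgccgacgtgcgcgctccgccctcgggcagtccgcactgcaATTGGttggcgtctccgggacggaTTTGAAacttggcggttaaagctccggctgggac
NCAPG at chr4:17810839-17810978, plus strand: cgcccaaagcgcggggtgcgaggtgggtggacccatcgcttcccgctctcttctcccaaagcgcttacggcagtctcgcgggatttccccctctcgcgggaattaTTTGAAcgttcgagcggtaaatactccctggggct
CDC20 at chr1:43358841-43358980, plus strand: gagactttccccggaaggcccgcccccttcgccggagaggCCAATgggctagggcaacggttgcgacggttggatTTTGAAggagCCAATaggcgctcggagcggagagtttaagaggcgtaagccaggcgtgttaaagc
ESPL1 at chr12:53268159-53268298, plus strand: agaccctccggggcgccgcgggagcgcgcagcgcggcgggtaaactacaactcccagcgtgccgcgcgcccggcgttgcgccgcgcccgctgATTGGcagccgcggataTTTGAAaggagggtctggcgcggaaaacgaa
In KIF18A, KIF4A and ESPL1 a CCAAT box precedes a CHR, in CDC20 CCAAT boxes flank it, and in NCAPG the CHR stands alone.

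Levels are given as CPM, the reads of a gene scaled to the depth of its library, and differences as log2 fold changes of CPM + 0.5 with a standard error (SE). A gene was called where limma's test against no change gave a Benjamini-Hochberg adjusted p under 0.05 over all 13951 genes. CPM is not corrected for transcript length, so levels were not compared between genes. The manipulated genes were examined first. MEIS1 mRNA rose from 4.25 ± 0.202 CPM (SD, n = 3) in Control to 47.4 ± 1.96 in LV-MEIS1, and from 3.56 ± 0.118 in HOXB13ko to 29.7 ± 0.365 in HOXB13ko-LV-MEIS1. HOXB13 mRNA was 185, 215 and 187 CPM in Control and 347, 326 and 307 CPM in the libraries labelled HOXB13ko, so the transcript was higher, not lower, under that label. The study verified the loss of protein by western blot, and the mRNA level alone does not test that loss. HOXB13 was at 152, 150 and 151 CPM in LV-MEIS1 and 326, 361 and 375 CPM in HOXB13ko-LV-MEIS1 (log2 fold change 1.23, SE 0.067, limma treat adjusted p = 3.9e-06), so the transcript was again higher under the label, and by more. Estimated depth was between 17180000 and 28680000 reads per library, so that 3 reads corresponded to 0.105 to 0.175 CPM, far below every mitotic gene. All 10 luminal prostate markers were above 1 CPM on average in every group, with a summed level of 2510 to 2550 CPM in LV-MEIS1 and 3240 to 3570 CPM in the other groups. Of 8 stromal markers 5 were listed, summing to 39.7 to 54.2 CPM, and none of the 4 endothelial markers was listed. The part of these markers in the results below was not tested.

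Most mitotic genes were lowest in Control and highest in HOXB13ko-LV-MEIS1. HOXB13ko-LV-MEIS1 had the highest mean of the 4 groups in 42 cases (76.4%, all genes 23.0%) and Control the lowest in 34 (61.8%, all genes 26.0%). LV-MEIS1 had the lowest mean in another 17 (30.9%, all genes 31.8%). Over the 4 groups, limma's F-test called 48 of the 55 genes (87.3%, against a background of 65.0% of all genes). The 7 genes not called were CDC25B, PLK4, SPC25, KIF20B, KIFC1, SMC2 and ESPL1. The changes were small: with limma's treat test against a fold change of 1.5, no mitotic gene was called in any comparison. That test called 3.99% of all genes in LV-MEIS1 against Control, 1.41% in HOXB13ko against Control, 0.00717% in HOXB13ko-LV-MEIS1 against HOXB13ko, 6.71% in HOXB13ko-LV-MEIS1 against LV-MEIS1 and 2.93% for the difference of the MEIS1 effects.

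**Figure D1:**
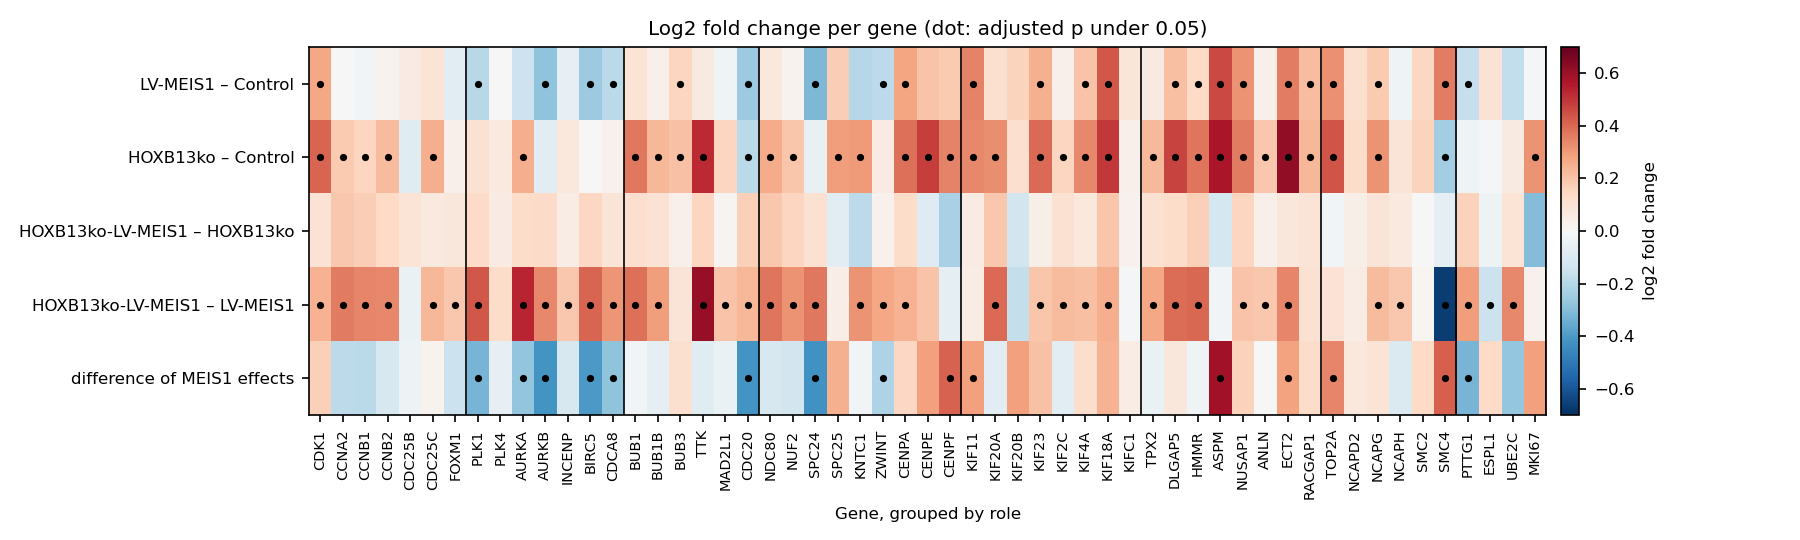
Log2 fold change of each of the 55 mitotic genes (columns, grouped by role and separated by black lines) in 5 comparisons (rows), with red for higher, blue for lower and a dot where the limma adjusted p is under 0.05. The HOXB13ko row and the HOXB13ko-LV-MEIS1 against LV-MEIS1 row are mostly red with 36 and 40 dots, and the row of MEIS1 in the HOXB13ko line has none.

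Summed over the 55 genes, the level was 7847 ± 120 CPM (SD, n = 3) in Control, 8378 ± 240 in LV-MEIS1, 9168 ± 268 in HOXB13ko and 9247 ± 236 in HOXB13ko-LV-MEIS1. The 39 DNA replication genes did not follow that order. Their summed level was 5824 ± 143 CPM in Control, 5350 ± 208 in LV-MEIS1, 5208 ± 93 in HOXB13ko and 5431 ± 135 in HOXB13ko-LV-MEIS1. Every library of both groups labelled HOXB13ko lay above every other library in the mitotic sum. In the replication sum these libraries lay below every Control library, as did every LV-MEIS1 library. A sum gives most weight to genes with many reads. From Control to LV-MEIS1 the mean of ASPM went from 263 to 361 CPM and that of SMC4 from 342 to 438 CPM. Of the 55 genes 16 were called higher there and 8 lower (29.1% and 14.5%, against 23.2% and 21.3% of all genes). The mitotic sum of LV-MEIS1 is therefore not a rise of the whole set.

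**Figure D2:**
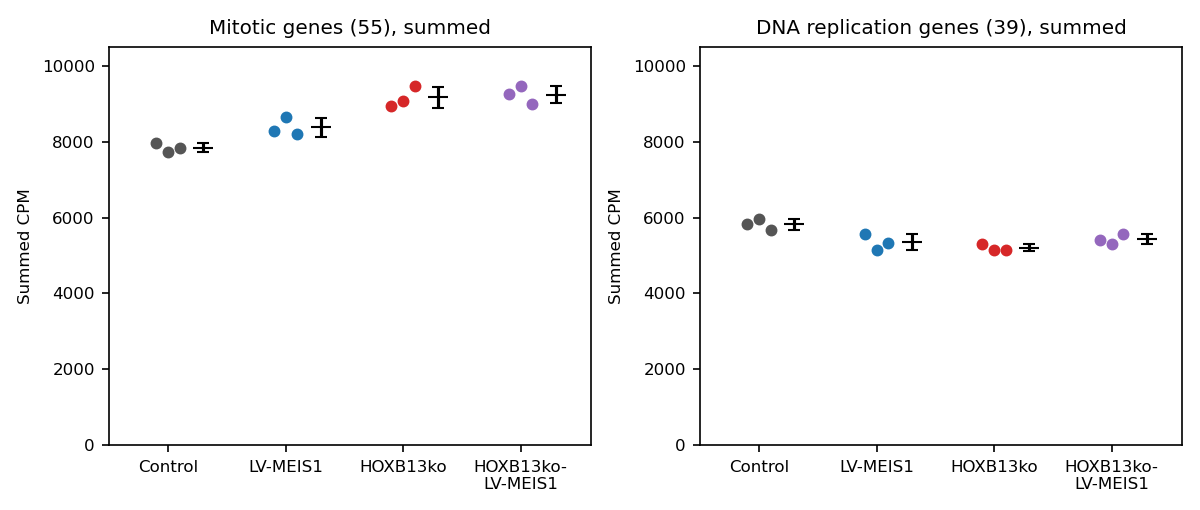
Summed CPM of the 55 mitotic genes (left) and of the 39 DNA replication genes (right) in each library, by group, with the mean and SD (n = 3) as bars beside the points. The mitotic sum is lowest in Control, at 7847 on average, and highest in HOXB13ko-LV-MEIS1, at 9247, while the replication sum is highest in Control, at 5824. Genes with many reads weigh most in these sums.

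The comparison of HOXB13ko with Control asks how the mitotic genes differ in the cells targeted at HOXB13. Of the 55 genes 34 were called higher (61.8%, against a background of 16.5% of all genes) and 2 were called lower (3.64%, background 16.4%). In both directions together 65.5% were called, against 32.9% of all genes. The median log2 fold change was 0.222, against -0.002 over all genes. All 3 libraries labelled HOXB13ko lay above all 3 Control libraries for 37 genes (background 21.8%) and below them for 2 (background 23.1%). Calls rested partly on single libraries: 25 of the 36 held whichever library was left out, and without HOXB13ko replicate 3 the count was 27, of which 26 were higher.

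The spindle assembly and cytokinesis genes rose as a group, with 8 of 8 called higher. ECT2, the exchange factor that activates RhoA for the cleavage furrow, was at 210, 181 and 186 CPM in Control and at 286, 290 and 311 CPM in HOXB13ko (log2 fold change 0.62, SE 0.059, limma adjusted p = 3.3e-06). DLGAP5, which stabilises the microtubules next to kinetochores, was at 59.4, 59.5 and 56.8 CPM in Control and at 79.1, 81.5 and 84.2 CPM in HOXB13ko (0.48, SE 0.053, limma adjusted p = 1.5e-05). ASPM, a protein of spindle poles, was at 294, 230 and 264 CPM in Control and at 349, 386 and 433 CPM in HOXB13ko (0.57, SE 0.104, limma adjusted p = 0.0011). In each of these 3 genes the groups did not overlap. HMMR, a spindle-pole adaptor of TPX2, rose by 0.37, NUSAP1, which bundles spindle microtubules, by 0.36, and TPX2, the activator of Aurora A on the spindle, by 0.22 on the log2 scale. ANLN, a scaffold of the contractile ring, and RACGAP1, the partner of KIF23 in the central spindle, rose by 0.19 and 0.23. The ANLN call was lost without HOXB13ko replicate 3 (0.16).

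In the spindle checkpoint 4 of 6 genes rose and 1 fell. TTK, the kinase that starts checkpoint signalling at kinetochores, was at 50.4, 50.8 and 53.8 CPM in Control and at 74.3, 70.8 and 78.1 CPM in HOXB13ko (log2 fold change 0.52, SE 0.053, limma adjusted p = 6.3e-06). BUB1, the kinase that brings other checkpoint proteins to the kinetochore, was at 94.0, 86.3 and 83.9 CPM in Control and at 109, 111 and 121 CPM in HOXB13ko (0.37, SE 0.055, limma adjusted p = 0.00021). The HOXB13ko libraries lay above the Control libraries for both kinases, and BUB1B and BUB3, subunits of the checkpoint complex that inhibits CDC20, rose by 0.23 and 0.20. The target of that complex moved the other way: CDC20, the activator of the anaphase-promoting complex, was at 172, 195 and 185 CPM in Control and at 168, 165 and 153 CPM in HOXB13ko (-0.19, SE 0.062, limma adjusted p = 0.033). This call was lost without Control replicate 2 or 3 or HOXB13ko replicate 2 or 3, with values between -0.20 and -0.14. MAD2L1, which binds CDC20 at unattached kinetochores, did not pass the test (0.15, SE 0.063, limma adjusted p = 0.075).

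Kinetochore and centromere genes rose in 7 of 9 cases. CENPE, the kinesin that moves chromosomes to the metaphase plate, was at 103, 91.2 and 109 CPM in Control and at 129, 138 and 157 CPM in HOXB13ko (log2 fold change 0.49, SE 0.086, limma adjusted p = 0.00079). CENPA, the histone that marks centromeres, was at 16.5, 20.1 and 16.9 CPM in Control and at 25.2, 23.2 and 21.9 CPM in HOXB13ko (0.39, SE 0.083, limma adjusted p = 0.0029). Both sets of libraries were separate. Of the Ndc80 complex, which holds microtubules, NDC80 and NUF2 rose by 0.26 and 0.19, SPC25 rose by 0.29, and SPC24 did not pass (-0.05, SE 0.064, limma adjusted p = 0.56). CENPF and KNTC1, a subunit of the complex that recruits dynein, rose by 0.35 and 0.30, and ZWINT, which links KNL1 to that complex, did not pass (0.06). The calls of SPC25, KNTC1 and CENPF were each lost without Control replicate 2 or HOXB13ko replicate 3 (and that of KNTC1 also without Control replicate 3, that of SPC25 also without HOXB13ko replicate 2), with values between 0.22 and 0.30.

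Among 8 kinesin motors 6 rose. KIF18A, which limits chromosome oscillation at the plate, was at 28.0, 25.1 and 26.9 CPM in Control and at 36.7, 36.5 and 40.3 CPM in HOXB13ko (log2 fold change 0.50, SE 0.073, limma adjusted p = 0.00018). KIF23, the motor of the central spindle, rose by 0.40, KIF11, which pushes spindle poles apart, by 0.34, KIF4A, the chromokinesin that limits the length of the midzone, by 0.33, KIF20A, a cytokinesis motor, by 0.32, and KIF2C, a microtubule depolymerase, by 0.15. KIF20B and the minus-end motor KIFC1 had log2 fold changes of 0.12 (SE 0.145) and 0.04 (SE 0.067) and did not pass. The condensation genes were divided. TOP2A, which untangles sister DNA, was at 193, 177 and 198 CPM in Control and at 244, 256 and 271 CPM in HOXB13ko (0.44, SE 0.067, limma adjusted p = 0.00023), and NCAPG, a condensin I subunit, rose by 0.32. SMC4, the ATPase shared by both condensins, was at 355, 315 and 357 CPM in Control and at 276, 286 and 303 CPM in HOXB13ko (-0.24, SE 0.068, limma adjusted p = 0.014), so that its levels lay lower in every HOXB13ko library. The SMC4 call was lost without Control replicate 3 (-0.21). The call of KIF2C was lost when any 1 library of either group was left out, at 0.13 to 0.17.

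Entry genes rose in 5 of 7 cases. CDK1, the kinase that drives mitosis, was at 105, 100 and 102 CPM in Control and at 133, 135 and 140 CPM in HOXB13ko (log2 fold change 0.41, SE 0.063, limma adjusted p = 0.00026), with no overlap. Its partners CCNA2, CCNB1 and CCNB2 rose by 0.18, 0.15 and 0.22, and CDC25C, a phosphatase that activates CDK1, by 0.26. The call of CCNA2 was lost without Control replicate 3 or HOXB13ko replicate 1 (0.15 to 0.16), and CCNB1 and CDC25C lost their calls in 7 and 9 of the 12 fits that left out 1 library. CDC25B and the transcription factor FOXM1 did not pass, at -0.09 (SE 0.057) and 0.04 (SE 0.051). Among the Polo and Aurora kinases and the chromosomal passenger complex, 1 of 7 was called. That was AURKA, the spindle pole kinase, at 66.0, 67.9 and 60.4 CPM in Control and 81.5, 75.1 and 75.4 CPM in HOXB13ko (0.25, SE 0.058, limma adjusted p = 0.0043). AURKB and BIRC5 of the passenger complex had values of -0.079 (SE 0.063) and 0.003 (SE 0.07). MKI67, the antigen used to score proliferation, rose by 0.32 (SE 0.092, limma adjusted p = 0.018), a call lost without Control replicate 2, HOXB13ko replicate 2 or HOXB13ko replicate 3 (0.25 to 0.30). PTTG1 (securin), ESPL1 (separase) and UBE2C, the ubiquitin-conjugating enzyme of the anaphase-promoting complex, lay between -0.03 and 0.06.

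**Figure D3:**
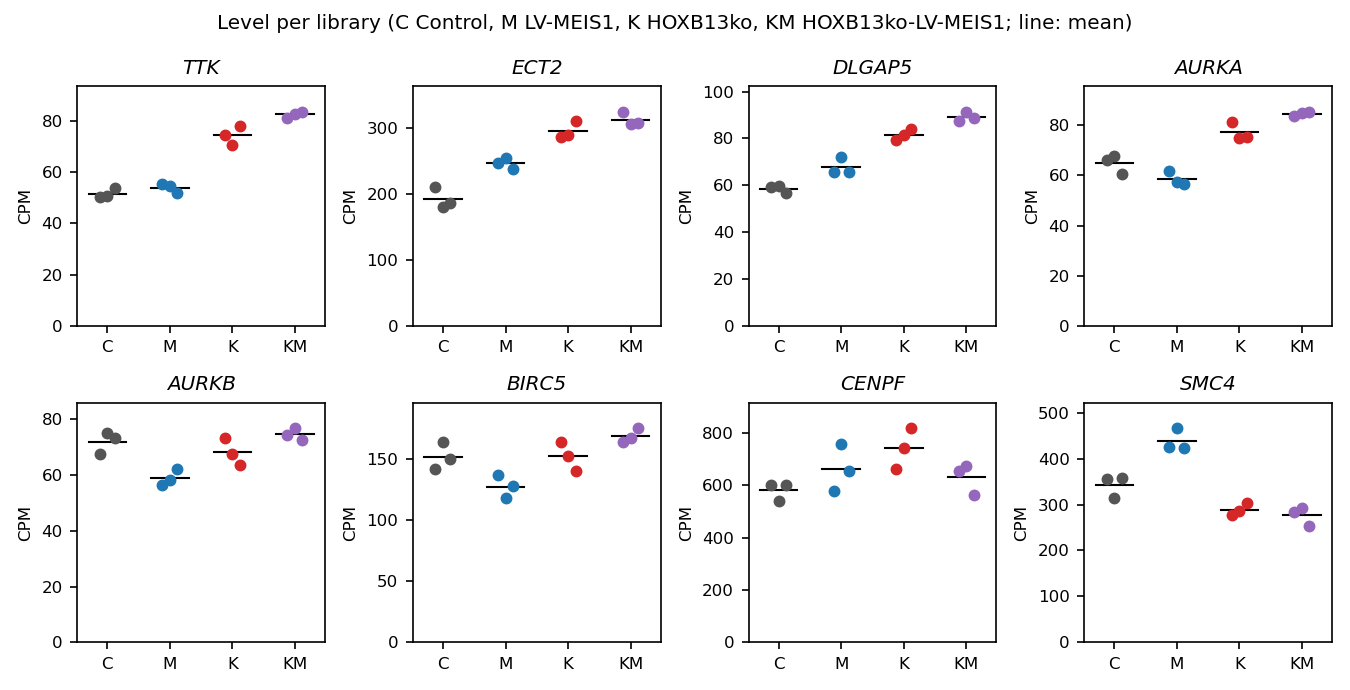
CPM of 8 mitotic genes in each library, with a line at the mean of the 3 libraries of each group and axes that start at 0. TTK, ECT2 and DLGAP5 step up in both HOXB13ko groups, AURKB and BIRC5 are lowest in LV-MEIS1, and SMC4 is highest in LV-MEIS1 and lowest in HOXB13ko-LV-MEIS1.

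HOXB13ko-LV-MEIS1 against LV-MEIS1 compares the HOXB13ko label among cells that carry MEIS1, and it shares no library with HOXB13ko against Control. The cell lines are not independent, since HOXB13ko-LV-MEIS1 was made from HOXB13ko. Here 38 of 55 genes were called higher (69.1%, against a background of 24.0%) and 2 lower (3.64%, background 26.1%), with a median of 0.23 against -0.02 over all genes. In both directions together 72.7% were called, against 50.1% of all genes. The libraries were separate for 42 genes, 40 above (background 28.2%) and 2 below (background 30.1%). Of the 34 genes called higher in HOXB13ko against Control, 25 were called higher here too (73.5% of the first set and 65.8% of the second). Over all genes these shares were 48.6% and 33.4%, and 8.01% of all genes were called higher in both. Of the 2 genes called lower in the first comparison 1 was called lower here, and 7.96% of all genes were called lower in both. Of the 40 calls 32 held whichever library was left out, and the count was 35 without LV-MEIS1 replicate 3. The calls lost in some fits were those of CDC25C, INCENP, MAD2L1, CENPA, KIF23, KIF18A, NUSAP1 and ESPL1.

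TTK is encoded at chr6:80003887-80042527, ECT2 at chr3:172750682-172821474 and SMC4 at chr3:160399274-160434954, all on the plus strand of GRCh38.

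TTK had the highest value here, with 55.4, 54.7 and 51.9 CPM in LV-MEIS1 and 81.3, 82.8 and 83.6 CPM in HOXB13ko-LV-MEIS1 (log2 fold change 0.61, SE 0.053, limma adjusted p = 2.8e-07). The Polo and Aurora kinases and the passenger complex, of which 1 gene was called in the first comparison, were called higher for 6 of 7 here. AURKA was at 61.6, 57.3 and 56.5 CPM in LV-MEIS1 and at 83.6, 84.9 and 85.4 CPM in HOXB13ko-LV-MEIS1 (0.53, SE 0.058, limma adjusted p = 2.9e-06). PLK1, the kinase of centrosome maturation and mitotic exit, was at 111, 105 and 112 CPM in LV-MEIS1 and at 139, 153 and 151 CPM in HOXB13ko-LV-MEIS1 (0.43, SE 0.066, limma adjusted p = 7.8e-05). For both kinases every library with the HOXB13ko label was higher. BIRC5 (survivin), AURKB and CDCA8 (borealin) rose by 0.40, 0.34 and 0.31, and INCENP, the scaffold of their complex, by 0.19. PLK4, the kinase of centriole duplication, did not pass (0.13, SE 0.056, limma adjusted p = 0.076).

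Entry, checkpoint and kinetochore genes were called higher in 6 of 7, 5 of 6 and 6 of 9 cases. CCNA2 was at 133, 119 and 117 CPM in LV-MEIS1 and at 159, 160 and 156 CPM in HOXB13ko-LV-MEIS1 (log2 fold change 0.36, SE 0.054, limma adjusted p = 5.8e-05). NDC80 was at 65.5, 64.6 and 56.4 CPM in LV-MEIS1 and at 79.7, 83.2 and 78.9 CPM in HOXB13ko-LV-MEIS1 (0.38, SE 0.058, limma adjusted p = 9.8e-05). The libraries of these genes were separate. CDC20, lower in HOXB13ko than in Control, was higher here, with 162, 146 and 155 CPM in LV-MEIS1 and 173, 178 and 194 CPM in HOXB13ko-LV-MEIS1 (0.23, SE 0.062, limma adjusted p = 0.0058). SPC24 and ZWINT, not called in the first comparison, rose by 0.37 and 0.27.

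The other groups had 5 of 8 kinesins, 6 of 8 spindle assembly genes and 2 of 6 condensation genes called higher. Of the 4 anaphase and proliferation genes 2 were called higher, PTTG1 (0.295) and UBE2C (0.335), and 1 lower. HMMR and KIF20A were the spindle gene and the kinesin with the highest values, 0.40 each, and DLGAP5 rose by 0.39. ASPM, CENPF and TOP2A, which rose in HOXB13ko against Control, had values of -0.02 (SE 0.104), -0.07 (SE 0.098) and 0.10 (SE 0.067) and did not pass. MKI67, which also rose there, did not pass here either (0.03, SE 0.092, limma adjusted p = 0.79). SMC4 was the gene with the largest difference of either sign: 424, 466 and 424 CPM in LV-MEIS1 against 284, 293 and 253 CPM in HOXB13ko-LV-MEIS1 (-0.66, SE 0.068, limma adjusted p = 1.6e-06). It was the lower call shared by both comparisons. By the annotation, exons of SMC4 overlap those of IFT80 and TRIM59 on the opposite strand. Since no strand setting was given for the counting, its values are less certain. Another 11 mitotic genes share exons with listed genes, and their values are less certain too. The overlap is on the opposite strand for CCNA2, CDC25C, FOXM1, SPC24, KIF20A, KIF4A, NUSAP1, NCAPD2 and NCAPG. It is on the same strand for BUB1B and CENPA, where a strand setting would not separate the genes. ESPL1 fell by 0.15, a call lost in 5 of the 12 fits that left out 1 library, and KIF20B had -0.17 (SE 0.145) without a call.

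**Figure D4:**
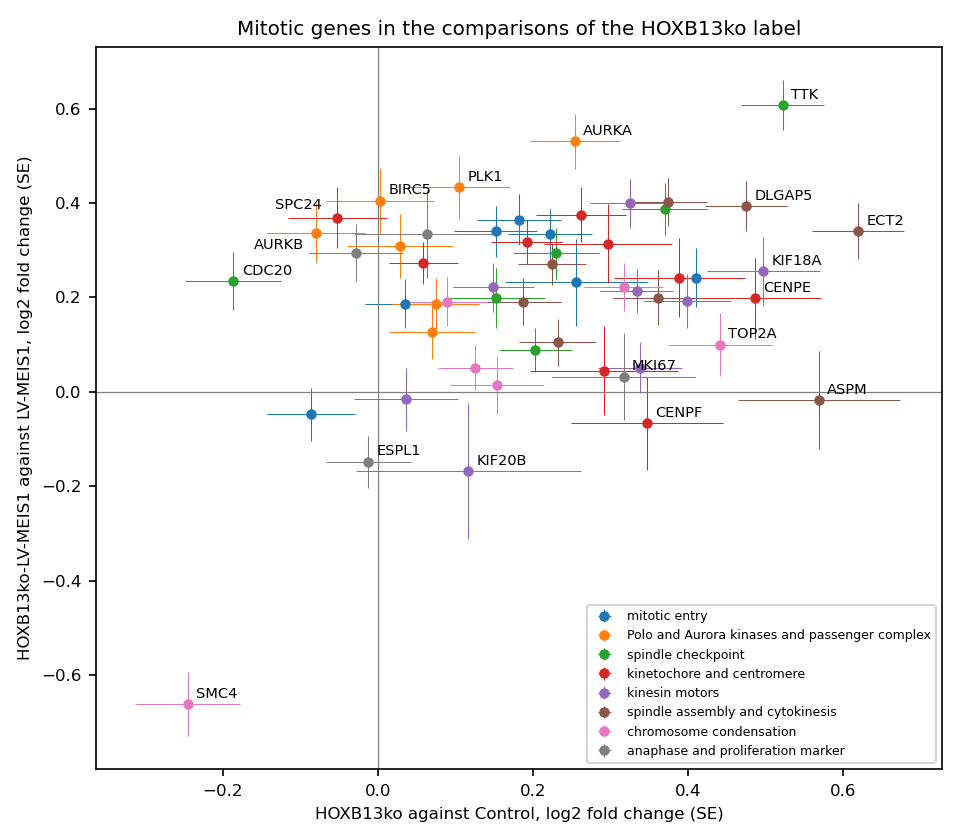
Log2 fold change of each mitotic gene in HOXB13ko against Control (horizontal) and in HOXB13ko-LV-MEIS1 against LV-MEIS1 (vertical), coloured by role, with SE bars. Most points lie above 0 on both axes, TTK farthest up at 0.52 and 0.61, SMC4 lies below 0 on both at -0.24 and -0.66, and CDC20 is lower in one and higher in the other.

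LV-MEIS1 against Control asks how MEIS1 changes mRNA in cells that were not targeted at HOXB13. The share of mitotic genes called was close to the background here: 24 of 55 (43.6%, against 44.5% of all genes), with 16 higher (29.1%, background 23.2%) and 8 lower (14.5%, background 21.3%). The median log2 fold change was 0.08, against 0.01 over all genes. All LV-MEIS1 libraries lay above Control for 21 genes (background 26.3%) and below for 6 (background 25.1%). Leaving out 1 library kept 18 of the 24 calls in every fit, and the count was 19 without LV-MEIS1 replicate 2.

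The counts are given by role, but no test of role was run. Spindle assembly genes were called higher in 6 of 8 cases, kinesins in 4 of 8 and condensation genes in 3 of 6, with none lower. ASPM was at 294, 230 and 264 CPM in Control and at 329, 407 and 347 CPM in LV-MEIS1 (log2 fold change 0.46, SE 0.104, limma adjusted p = 0.0025). KIF18A was at 28.0, 25.1 and 26.9 CPM in Control and at 36.7, 39.3 and 33.0 CPM in LV-MEIS1 (0.44, SE 0.073, limma adjusted p = 0.00026). ECT2 and SMC4 rose by 0.36 each, KIF11 by 0.35, TOP2A by 0.32 and NUSAP1 by 0.31, and for these 7 genes each LV-MEIS1 library was above each Control library. HMMR rose by 0.14 (limma adjusted p = 0.038), a call lost in 4 of the 12 fits that left out 1 library, and its value was -0.03 once the trend with GC content and transcript length described below was removed from each library.

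In the group of Polo and Aurora kinases and the passenger complex 4 of 7 genes were called lower (57.1%, against 21.3% of all genes) and none higher. These were PLK1 and, of the passenger complex, AURKB, BIRC5 and CDCA8, while the scaffold INCENP did not pass (-0.06, SE 0.056, limma adjusted p = 0.41). AURKB, the kinase of the complex, was at 67.3, 75.1 and 73.1 CPM in Control and at 56.4, 58.3 and 62.0 CPM in LV-MEIS1 (log2 fold change -0.28, SE 0.063, limma adjusted p = 0.0022). BIRC5 was at 142, 164 and 150 CPM in Control and at 136, 118 and 127 CPM in LV-MEIS1 (-0.26, SE 0.07, limma adjusted p = 0.009). The LV-MEIS1 libraries were lower than all Control libraries for both genes. PLK1 and CDCA8 fell by 0.19 each, but the calls were lost in 3 and 5 of the 12 fits that left out 1 library, among them those without Control replicate 2 or LV-MEIS1 replicate 2. SPC24, at 57.0, 58.6 and 62.0 CPM in Control and 50.2, 46.4 and 46.1 CPM in LV-MEIS1, had the lowest value (-0.31, SE 0.064, limma adjusted p = 0.0012). CDC20 fell by 0.25, ZWINT by 0.18 and PTTG1 by 0.16, the last call being lost in 5 of the 12 fits that left out 1 library. CDK1 was the entry gene called, higher by 0.27, and of the checkpoint and centromere genes BUB3 and CENPA were higher by 0.15 and 0.27. The BUB3 value was -0.002 after the GC and length trend was removed, and its call was lost in 3 fits that left out 1 library. CENPA lost its call without Control replicate 1 or 3 (0.22 and 0.24). The cyclins CCNA2 and CCNB1 had values of 0.003 and -0.018, and MKI67 had -0.02 (SE 0.092).

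The calls also followed the composition of the transcripts. All 8 lower calls were in mitotic genes with GC content above the median of the 55 genes, 42.1%, and with transcripts no longer than their median, 3119 bases. Above 42.1% GC 29.6% of the mitotic genes were called lower, against 27.1% of all genes in that range, and at or below it 46.4% were called higher, against 38.0%. Up to 3119 bases 28.6% were called lower, against 27.5% of all genes. Above 42.1% GC and up to 3119 bases, the share called lower was thus close to that of all genes in the same range. In the opposite ranges it was below that of all genes. At or below 42.1% GC 0.0% of the mitotic genes were called lower, against 8.66% of all genes. Above 3119 bases 0.0% were called lower, against 17.9% of all genes. No set of genes matched on both GC and length was compared.

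MEIS1 in the HOXB13ko line gave no call: 0 of 55 mitotic genes, against 7 of 13951 genes (0.0502%, with 0.0215% higher and 0.0287% lower). At an unadjusted p under 0.05, 18 mitotic genes passed (32.7%, against 14.8% of all genes). The median log2 fold change was 0.09, against 0.01 over all genes, and 45 of 55 values were above 0 (81.8%, against 51.9% of all genes). This was not particular to the 55 genes. Of the 39 DNA replication genes 32 had values above 0 (82.1%, median 0.057). Of 103 mitotic genes outside the list 70 did (68.0%, median 0.046). The HOXB13ko-LV-MEIS1 libraries lay above all HOXB13ko libraries for 21 of the 55 genes (background 10.6%) and below for 1 (background 10.6%). The highest values were 0.20 for KIF18A (SE 0.073, limma adjusted p = 0.24), 0.19 for NDC80 (SE 0.058, limma adjusted p = 0.18) and 0.19 for CCNA2 (SE 0.054, limma adjusted p = 0.16). NDC80 was at 70.2, 69.3 and 72.7 CPM in HOXB13ko and at 79.7, 83.2 and 78.9 CPM in HOXB13ko-LV-MEIS1. For CCNA2 these levels were 144, 136 and 138 CPM and 159, 160 and 156 CPM. Neither gene had overlapping libraries. The lowest was MKI67, at 726, 821 and 881 CPM in HOXB13ko and at 672, 707 and 590 CPM in HOXB13ko-LV-MEIS1 (-0.30, SE 0.092, limma adjusted p = 0.17), followed by CENPF (-0.23) and KNTC1 (-0.18). MEIS1 mRNA was 29.7 CPM in this line and 47.4 CPM in LV-MEIS1, so the levels of MEIS1 differed as well as the HOXB13 label.

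The difference of the MEIS1 effects, the log2 fold change of MEIS1 in the Control line minus that in the HOXB13ko line, was called for 15 of 55 genes (27.3%, against a background of 34.2%). It was called higher for 6 (10.9%, background 18.0%) and lower for 9 (16.4%, background 16.2%). Of the Polo and Aurora group 5 of 7 were called lower: AURKB at -0.42 (SE 0.089, limma adjusted p = 0.0028), BIRC5 at -0.40 (SE 0.1), PLK1 at -0.33 (SE 0.093), CDCA8 at -0.28 (SE 0.097) and AURKA at -0.28 (SE 0.081). In these genes the MEIS1 value was below 0 in the Control line and above 0 in the HOXB13ko line, -0.28 and 0.13 for AURKB. SPC24 and CDC20 (-0.42 each), PTTG1 (-0.32) and ZWINT (-0.21) had the same signs. The positive differences were in ASPM (0.59, SE 0.148, limma adjusted p = 0.0078), SMC4 (0.42, SE 0.096), CENPF (0.41, SE 0.139), TOP2A (0.34, SE 0.094), KIF11 (0.29, SE 0.077) and ECT2 (0.28, SE 0.083). Of the 15 calls 12 held whichever library was left out. CDCA8 and CENPF lost theirs in 6 of the 12 fits each, and ECT2 without HOXB13ko replicate 3 (0.24).

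These 6 and 9 genes also differ in the length and base composition of their transcripts. All 6 genes with a positive difference have transcripts longer than the median of the mitotic genes, 3119 bases, and GC content at or below their median, 42.1%. All 9 genes with a negative difference lie on the other side of both. ASPM has a transcript of 10863 bases with 37.1% GC, and AURKB one of 1243 bases with 55.7% GC. Across the 55 genes the difference had a Spearman correlation of 0.61 with length and -0.54 with GC, and across 12489 genes with a value 0.31 and -0.26. The points share 12 libraries and are not independent, so no p is given.

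**Figure D5:**
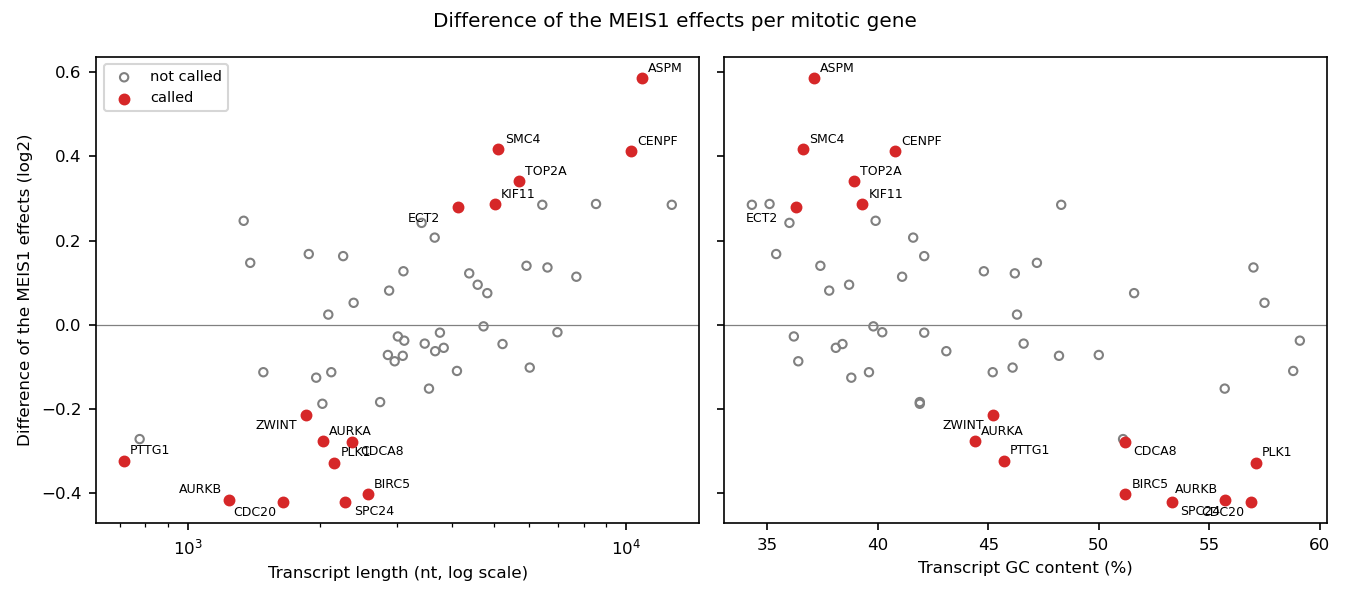
Difference of the MEIS1 effects (log2) for each mitotic gene against the length of its transcript on a log axis (left) and its GC content (right), with filled points for the 15 called genes. The positive calls lie among long transcripts of low GC and the negative calls among short transcripts of high GC.

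The trend with length and GC differed between comparisons. For LV-MEIS1 against Control the Spearman correlations across the mitotic genes were 0.36 with length and -0.57 with GC. For HOXB13ko-LV-MEIS1 against HOXB13ko the correlation with length had the other sign, -0.68 (-0.32 across 12489 genes). That with GC was 0.13 (-0.05 across 12489 genes). In HOXB13ko against Control the fold change had a Spearman correlation with GC of -0.61 across the mitotic genes and -0.54 across 12489 genes. Mitotic transcripts have less GC than listed genes as a whole, with medians of 42.1% and 48.4%. At or below 42.1% GC, 23 of 28 mitotic genes were called higher (82.1%), against 33.5% of all genes in that range. Above it, 11 of 27 were called higher (40.7%), against 11.1% of all genes. In HOXB13ko-LV-MEIS1 against LV-MEIS1, where the correlation with GC was 0.03 and that with length -0.56, the shares called higher were 60.7% and 77.8%, against 26.7% and 24.6% of all genes. With the trend of each library with GC and length removed, an alternative chosen after seeing the data, 32 mitotic genes were called higher (58.2%, against 13.6% of 12489 genes in that fit) and 1 lower in HOXB13ko against Control. In HOXB13ko-LV-MEIS1 against LV-MEIS1 42 were called higher (76.4%, against 30.9%) and 1 lower. LV-MEIS1 against Control then gave 17 higher and 10 lower, 49.1% in all against 49.3% of all genes, and its median moved from 0.075 to -0.002. The difference of the MEIS1 effects gave 3 higher (5.45%, against 18.2%) and 18 lower (32.7%, against 21.9%), 38.2% in all, near the 40.1% of all genes, and CENPF (0.14), KIF11 (0.13), ECT2 (0.11) and CDCA8 (-0.21) were no longer called. What part the length and GC of transcripts had in these calls was not otherwise tested.

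Promoter motifs were set beside the fold changes as a description. In HOXB13ko against Control the 27 mitotic genes with both a CHR and a CCAAT box had a median of 0.33 and 17 called higher (63.0%), and the 19 others with a window had a median of 0.15 and 11 called higher (57.9%). Among all listed genes with both motifs 24.3% were called higher, and 16.9% of those without both. In HOXB13ko-LV-MEIS1 against LV-MEIS1 the shares were 63.0% with both motifs and 73.7% without, and in LV-MEIS1 against Control they were 44.4% and 10.5%, against 25.4% and 23.8% of all listed genes. Of the promoters printed above, KIF18A and KIF4A with both motifs and NCAPG with the CHR alone belong to genes called higher in both comparisons, CDC20 to a gene called in opposite directions, and ESPL1, with both motifs, to a gene with 118, 117 and 108 CPM in Control and 117, 114 and 108 CPM in HOXB13ko.

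Mitotic genes outside the list of 55, and DNA replication genes, 154 genes in 8 further pathway lists, were read from the same fit. Of 29 other spindle and centrosome genes, 16 were called higher (55.2%, against 16.5% of all genes) and 0 lower in HOXB13ko against Control. In HOXB13ko-LV-MEIS1 against LV-MEIS1 15 were called higher (51.7%, against 24.0%) and 2 lower. DEPDC1 rose by 0.54 and 0.45 in them. PRC1, which bundles microtubules of the central spindle, was the one gene of all these lists called by the treat test: 142, 134 and 139 CPM in LV-MEIS1 against 271, 291 and 289 CPM in HOXB13ko-LV-MEIS1 (log2 fold change 1.03, SE 0.048, limma treat adjusted p = 5.2e-06), with 212, 225 and 209 CPM in Control. Among the entry and exit regulators, NEK2, a centrosome kinase, rose by 0.38 and 0.33 in both comparisons of the HOXB13ko label, and WEE1, which holds CDK1 inactive, had 0.01 and fell by 0.49. Of the 15 genes of that list 4 were called higher and 2 lower in the first (26.7% and 13.3%, against 16.5% and 16.4% of all genes). The second had 5 higher and 4 lower (33.3% and 26.7%, against 24.0% and 26.1%).

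The shares for the anaphase-promoting complex and the constitutive centromere were near the background in HOXB13ko against Control. There, 3 of 17 genes of the anaphase-promoting complex were called higher and 3 lower (17.6% each, against 16.5% and 16.4% of all genes). Of 15 cohesin genes 3 were higher and 1 was lower (6.67%). Of 24 constitutive centromere and MIS12 genes 5 were higher and 4 lower (20.8% and 16.7%). For the anaphase-promoting complex 7 genes were higher and 2 lower (41.2% and 11.8%) in HOXB13ko-LV-MEIS1 against LV-MEIS1. The background in that comparison was 24.0% higher and 26.1% lower. The constitutive centromere and MIS12 genes had 7 higher and 3 lower in it (29.2% and 12.5%), and cohesin genes 2 each (13.3% each). Condensin II subunits NCAPD3 and NCAPG2 rose by 0.24 and 0.25 in HOXB13ko against Control, and by 0.30 and 0.53 in HOXB13ko-LV-MEIS1 against LV-MEIS1. ANAPC2, the cullin of the anaphase-promoting complex, fell by 0.35 and 0.69 in these comparisons. Of 12 DREAM and MYB-MuvB genes 2 were higher and 2 lower in the first comparison (16.7% each, against 16.5% and 16.4% of all genes). Among these 12, E2F4, a repressor subunit of DREAM, fell by 0.27, and its partner TFDP2 had 0.02. DNA replication genes went the other way from the mitotic genes in HOXB13ko against Control, with 0 of 39 called higher and 17 lower (43.6%, against 16.4% of all genes), and in LV-MEIS1 against Control 2 were higher and 16 lower (41.0%, against 21.3%). UHRF1, which recruits DNA methylation to replicated DNA, fell by 0.52 and 0.24 in them. The GC content and length of the replication transcripts were not examined, and their part in these calls was not tested. In HOXB13ko-LV-MEIS1 against LV-MEIS1 8 replication genes were higher and 4 lower (20.5% and 10.3%, against 24.0% and 26.1% of all genes). RFC2, a subunit of the clamp loader, rose by 0.40 there. SGO2, which protects centromeric cohesin, rose by 0.38 in HOXB13ko against Control. RAD21, the cohesin kleisin, and ANAPC15 had 0.11 and -0.07 in that comparison without a call. Of the MIS12 complex and its neighbours, NSL1 rose by 0.16 and PMF1 fell by 0.20 there.

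The libraries of a group agreed closely on the mitotic genes. The median within-group SD was 0.067 on the log2 scale, against 0.088 for 9601 genes in the same range of CPM. The most variable were KIF20B (0.21), ASPM (0.16), CENPF (0.15), MKI67 (0.14) and UBE2C (0.14), and the least variable was TPX2 (0.04). KIF20B, the most variable, was at 10.0 to 16.9 CPM over the 12 libraries. CENPF was at 663, 744 and 819 CPM in HOXB13ko and at 657, 676 and 565 CPM in HOXB13ko-LV-MEIS1, so that its groups overlapped.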

How the data were processed

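RNA of CWR22Rv1 cells, as 12 libraries with 3 per group by their labels, was sequenced as single-end reads of 50 bp from stranded libraries. The deposited values are CPM, library-scaled read counts made by the authors: reads were trimmed with Trimmomatic 0.38, assigned to GRCh38 transcripts with kallisto 0.43.1 and no strand setting, summed to genes with tximport, filtered and normalised in edgeR 3.22.2. Of 13993 rows, 42 repeats were left out. Low CPM values gave depths, but only 47.9% to 60.9% of the values under 1 CPM lay within 0.1 read of whole multiples, so whole reads could not be restored and count tests were not used.

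For log2(CPM + 0.5), limma 3.58.1 under R 4.3.3 estimated each group's mean from all 12 libraries together and tested differences against no change (eBayes with trend), against a fold change of 1.5 (treat) and with an F-test over the groups. Adjusted p-values are Benjamini-Hochberg over 13951 genes at a threshold of 0.05. These scripts were tested on simulated data. The pseudocount adds little at these levels but shrinks the changes of low genes. The 55 genes and the further lists were chosen with earlier results of these data known. Named with values were the 3 genes of each role group with the smallest F-test p, those with the 3 highest and 3 lowest fold changes per comparison, the manipulated genes, and in the further lists the genes called by treat and the 2 with the smallest F-test p. Other genes are named for their counts. Transcript length and GC are those of MANE Select transcripts in GENCODE v44, which matched 12489 listed genes (89.5%) and all 55. Promoters are from RefSeq (GRCh38.p14). Alternatives were the pseudocount, a minimum of 1 CPM, an equal sum, quantile normalization, fits of the compared libraries alone, a replicate block and each library left out, with a GC and length correction added later.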

Additional observations from a re-analysis of the deposited data

Results flagged for a closer look

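The effect of MEIS1 differed between the Control line and the HOXB13ko line for 15 mitotic genes by the test of the difference itself (limma adjusted p under 0.05 over all genes, with 3 libraries per group). The difference on the log2 scale was -0.33 for PLK1, -0.28 for AURKA, -0.42 for AURKB, -0.40 for BIRC5 and -0.28 for CDCA8, all of the Polo and Aurora kinases and their passenger complex. It was -0.42 for CDC20, -0.42 for SPC24, -0.21 for ZWINT and -0.32 for PTTG1. It was 0.41 for CENPF, 0.29 for KIF11, 0.59 for ASPM, 0.28 for ECT2, 0.34 for TOP2A and 0.42 for SMC4. The share of mitotic genes with such a difference, 27.3%, was below the 34.2% of all genes. CENPF, KIF11, ECT2 and CDCA8 were no longer called once the GC and length trend was removed. CDCA8 and CENPF each lost their calls in 6 of the 12 fits that left out 1 library. The positive and negative differences also split by transcript length and GC, as described above. The level of MEIS1 mRNA also differed between the LV-MEIS1 and HOXB13ko-LV-MEIS1 libraries (47.4 and 29.7 CPM), and the MEIS1 level and the HOXB13ko label cannot be told apart here. Groups of 3 libraries are too small for a test of single libraries that stand apart.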

How the results depend on the processing

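Counts of mitotic genes called, both directions together, stayed within 1.5 times their values under every alternative run, but with the GC and length trend removed the difference of the MEIS1 effects went from 6 higher and 9 lower to 3 higher and 18 lower. Leaving out each replicate in turn gave 19 to 25 calls for LV-MEIS1 against Control, 27 to 36 for HOXB13ko against Control, 35 to 41 for HOXB13ko-LV-MEIS1 against LV-MEIS1, 12 to 18 for the difference of the MEIS1 effects and 43 to 48 over the 4 groups, and 0 for HOXB13ko-LV-MEIS1 against HOXB13ko and for the treat test. The median log2 fold change then ranged from 0.208 to 0.261 for HOXB13ko-LV-MEIS1 against LV-MEIS1 and from -0.053 to 0.009 for the difference. With libraries scaled to an equal sum the medians were 0.068 for HOXB13ko-LV-MEIS1 against HOXB13ko, 0.198 for HOXB13ko-LV-MEIS1 against LV-MEIS1 and 0.021 for the difference, and with quantile normalization the last of these were 0.179 and 0.019, so that the median of the difference, -0.019, has no stable sign. With the GC and length trend removed the medians were -0.002 for LV-MEIS1 against Control, 0.174 for HOXB13ko against Control and -0.069 for the difference, and the values of BUB3 (-0.002) and HMMR (-0.03) in LV-MEIS1 against Control changed sign. With a replicate block the calls numbered 22 for LV-MEIS1 and 32 for HOXB13ko, each against Control, 38 for HOXB13ko-LV-MEIS1 against LV-MEIS1, 15 for the difference and 43 over the groups, with 8 single calls lost. The numbers did not pair the samples, since same-numbered libraries deviated with correlations of -0.207 to 0.145 over 18 pairs and a library matched its own number best in 4 of 36 cases. No mitotic call changed with a pseudocount of 0.1 or 1 or with a minimum mean of 1 CPM. Except where stated, the cause was not tested. A gene that misses the threshold with 3 libraries per group is not shown to be unchanged.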
